A study of Mus musculus with 10 samples.

Results

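The laminin chain genes of the lens capsule were followed in RNA-seq of mouse lens epithelium. The 9 genes (Lama1, Lama2, Lama3, Lama4, Lama5, Lamb1, Lamb2, Lamb3 and Lamc1) were taken by symbol from a table of 50763 genes, and all 9 were found. They code for 5 α chains, 3 β chains and the main γ chain of the laminin trimer. Lens epithelia were dissected from 3-week-old mice of the FVB/N background, pooled and sequenced as 10 libraries. WT mice gave 3 libraries, each from up to 9 mice. The OVE853 line gave 3 libraries of up to 9 mice and the OVE918 line 4 libraries of up to 7 mice. Mice of both lines were homozygous for a secreted, constitutively active human TGF-β1 driven by the lens-specific αA-crystallin promoter, and their epithelia carried anterior subcapsular plaques. The lines were founded independently, the whole epithelium was taken rather than the plaque, and no mice received any treatment.

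Laminins are secreted as trimers of an α, a β and a γ chain and polymerise on the cell surface into the inner layer of a basement membrane. The α chain carries the globular end that binds integrins and dystroglycan, while nidogen joins the γ chain to the collagen IV network. The lens capsule is an unusually thick basement membrane that surrounds the lens, and its anterior part is laid down by the lens epithelium.

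Libraries held 24073311 to 31908525 counts assigned to genes. Levels are given as TMM-scaled CPM (counts scaled for the size and composition of the library), and levels of different genes are compared only as CPM per kb of exon. Counts of the mouse Tgfb1 gene also take in reads of the human transgene, so they do not measure the endogenous gene alone. Tgfb1 had a mean of 54.1 CPM in WT, 348 CPM in OVE853 and 771 CPM in OVE918 and was elevated in both lines over WT. All 6 lens epithelial markers were detected above 3 counts in every group, and their sum was mostly Cryaa, at 113928 to 118126 CPM in WT. Gja1, the epithelial connexin, was reduced in both lines, from a mean of 541 CPM in WT to 109 and 65.4 CPM, and Cdh1 was lower at the FDR limit in both with log2 fold changes of -0.76 and -0.61, while Foxe3, Pax6, Cryaa and Cryab were not called. WT replicate 3 stood apart. Its 6 retinal neuron markers summed to 703 CPM, against 75.0 and 89.5 CPM in the other WT libraries, and its 4 Müller glia markers to 1522 CPM against 462 and 465 CPM. The 5 cornea markers, almost all Aldh3a1, summed to 1622 CPM in that library, against 238 and 940 CPM. Every call on a laminin chain was therefore also made without WT replicate 3. These are bulk libraries, in which fewer cells of a type cannot be told apart from less RNA per cell.

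Of the 9 chains, 7 reached 2 FPKM in at least 5 libraries and were among the 11098 genes tested. Lama4 and Lamb3 were below this level in every library. Their fits come from a wider set of 18058 genes kept by edgeR's filterByExpr, which needs no gene length. A chain is called elevated or reduced at a Benjamini-Hochberg adjusted p (FDR) of at most 0.05 with a log2 fold change of at least 1 in size, in edgeR's quasi-likelihood test. In OVE853, 1 of the 7 tested chains was elevated (Lama5) and 1 was reduced (Lama3), where 4.42% of all tested genes were called, 2.51% as elevated and 1.91% as reduced. In OVE918 none was elevated and 2 were reduced (Lama3 and Lamb2), where 5.6% of all tested genes were called, 2.58% as elevated and 3.02% as reduced. The median log2 fold change over the 7 chains was 0.76 in OVE853 and 0.41 in OVE918, against -0.01 and 0.01 over all genes tested. Without WT replicate 3 the medians over the chains were 0.35 and 0.08, and those over all genes -0.01 and 0.01. Both comparisons share the WT libraries.

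**Figure D1:**
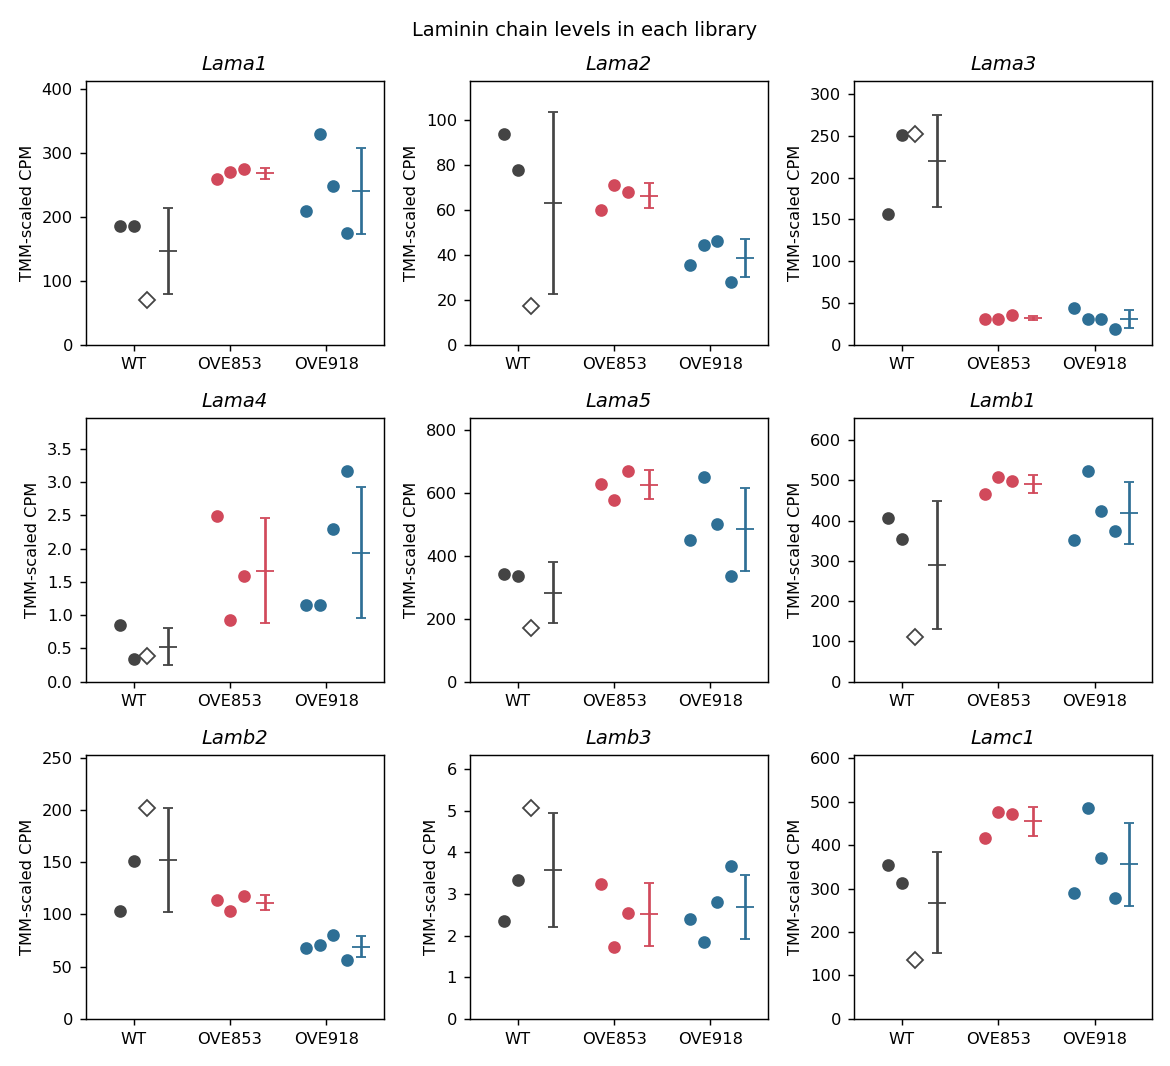
TMM-scaled CPM of the 9 laminin chain genes (y axes, each from 0) in WT (grey), OVE853 (red) and OVE918 (blue). Points are libraries, the open diamond is WT replicate 3, and the bars to the right are the mean ± SD of 3, 3 and 4 libraries. Lama3 fell from 156 to 252 CPM in WT to at most 44.3 CPM in any transgenic library, and WT replicate 3 was the lowest library for Lama1, Lama2, Lama5, Lamb1 and Lamc1.

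RefSeq promoter sequences (250 bases before to 50 after the start site, build GRCm38.p6) were taken for 5 of the 9 genes, and Lama3 was not among them. This count does not show that the other genes lack a promoter entry. The promoters of Lama5, Lamb1 and Lamb2 are shown because Lama5 was elevated in OVE853, Lamb1 varied with it from library to library, and Lamb2 was reduced in OVE918. Capitals mark exact matches on either strand. The motif searched as the core SMAD element was CAGAC, and the motif searched for AP-1 factors was TGACTCA. The GC box was searched as GGGCGG, and the TATA box was searched with the letters TATAAA. The E-box bound by SNAI and ZEB factors was searched as CAGGTG. None of these motifs contains another.
Lama5, chr2:180225810-180226109, minus strand: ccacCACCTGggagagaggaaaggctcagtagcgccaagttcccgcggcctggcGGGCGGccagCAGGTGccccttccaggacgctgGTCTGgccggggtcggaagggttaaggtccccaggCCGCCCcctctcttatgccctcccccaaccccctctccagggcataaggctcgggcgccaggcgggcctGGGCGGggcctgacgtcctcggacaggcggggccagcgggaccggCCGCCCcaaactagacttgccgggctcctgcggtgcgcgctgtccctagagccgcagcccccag
Lamb1, chr12:31265043-31265342, plus strand: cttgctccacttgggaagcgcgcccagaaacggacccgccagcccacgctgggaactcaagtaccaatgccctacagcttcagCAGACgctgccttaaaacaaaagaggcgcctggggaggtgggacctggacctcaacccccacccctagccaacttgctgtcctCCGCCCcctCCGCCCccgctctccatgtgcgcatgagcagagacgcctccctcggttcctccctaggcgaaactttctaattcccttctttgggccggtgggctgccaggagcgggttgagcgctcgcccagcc
Lamb2, chr9:108479612-108479911, plus strand: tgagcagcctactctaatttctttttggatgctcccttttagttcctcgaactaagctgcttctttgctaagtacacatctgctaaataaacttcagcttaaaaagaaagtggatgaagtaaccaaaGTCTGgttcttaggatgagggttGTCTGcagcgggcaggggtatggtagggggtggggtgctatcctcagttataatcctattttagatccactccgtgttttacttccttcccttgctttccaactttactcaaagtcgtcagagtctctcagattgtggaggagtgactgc
The Lama5 window held 4 GC boxes, 2 E-boxes and 1 SMAD element, and its GC content was 72.7%. The Lamb1 window held 2 GC boxes and 1 SMAD element with a GC content of 63.7%, and the Lamb2 window held 2 SMAD elements and none of the others with a GC content of 44%. Among 32851 promoters of the same length, the SMAD element was present in 49.6%, the GC box in 35.7%, the E-box in 20.2%, the TATA box in 13.6% and the AP-1 motif in 5.2%. No TATA box or AP-1 match lay in these 3 windows.

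The α3 chain gene showed the largest change of the 7 tested chains in both lines. Lama3 codes for the α chain of the laminin that anchors stratified and glandular epithelia at hemidesmosomes. It is listed at 156, 251 and 252 CPM in the WT libraries, at 30.8, 31.0 and 35.0 CPM in OVE853, and at 44.3, 30.7, 30.8 and 18.4 CPM in OVE918. All 7 transgenic libraries lay below all 3 WT libraries. Lama3 was 6.81-fold lower in OVE853 (log2 fold change -2.77 ± 0.29 (SE), edgeR FDR = 0.00019) and 7.08-fold lower in OVE918 (-2.82 ± 0.26, FDR = 5.05e-05). Without WT replicate 3 the log2 fold changes were -2.67 and -2.72, and the call held in both lines under every alternative tried. The transgenic lines did not separate from each other (log2 fold change of OVE918 over OVE853 -0.06 ± 0.26, FDR = 0.914). Tgfb1, counted with reads of the transgene, was 2.22-fold higher in OVE918 than in OVE853, and its relation to Lama3 was not tested. Lama3 exons overlap the pseudogene Gm29201 over 420 bases on the same strand, which is a small part of 12689 exon bases.

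Markers of the non-pigmented ciliary epithelium, which lies next to the lens equator, were lower in the same libraries as Lama3. Best2, Slc6a13 and Wfdc1, 3 of the 4 markers in the list, were reduced in OVE853 and all 4, with Zic1, in OVE918. Their summed level was 160 to 240 CPM in WT, 42.3 to 59.5 CPM in OVE853 and 14.8 to 25.9 CPM in OVE918, with no marker at the floor of 3 counts throughout a group. Within WT, replicate 1 had the lowest Lama3 (156 CPM) and the highest marker sum (240 CPM). Between the lines, Wfdc1 was reduced in OVE918 against OVE853. Best2 (edgeR FDR = 0.0551), Slc6a13 (FDR = 0.0815), Zic1 (FDR = 0.0610) and Lama3 were not called in that comparison. All 4 Müller glia markers were reduced in OVE853 and 3 of 4 in OVE918, with sums of 224 to 250 CPM and 126 to 231 CPM. The cornea markers summed to 64.5 to 94.9 CPM in OVE853 and 27.1 to 82.2 CPM in OVE918, Krt12 had 0 counts in every transgenic library, and Aldh3a1, the 1 marker of 5 that was tested, was reduced in both lines. The part of these cells in the Lama3 result was not tested.

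**Figure D2:**
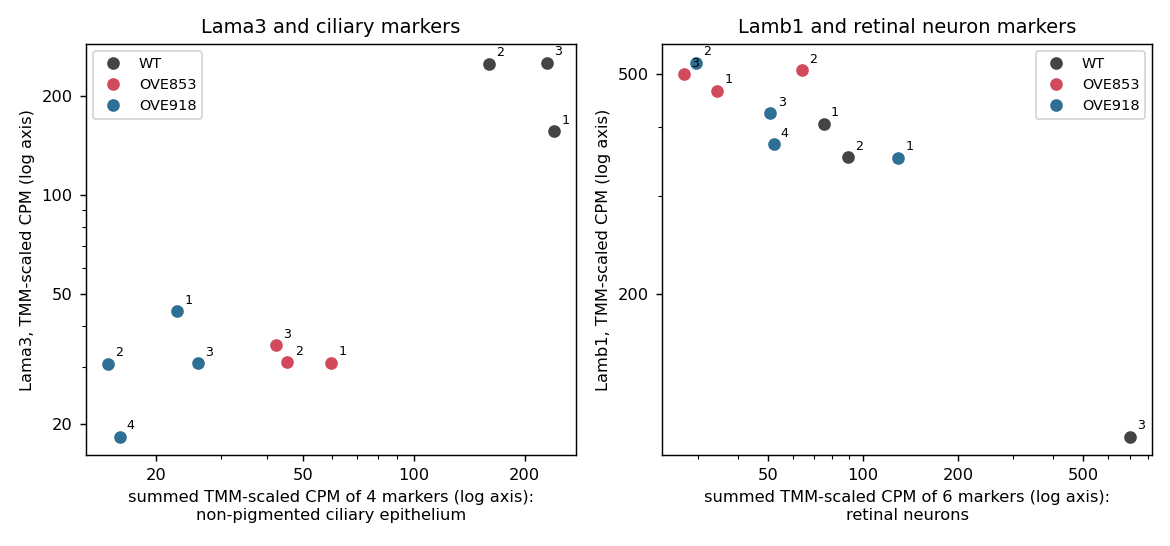
Left, Lama3 against the summed level of 4 markers of the non-pigmented ciliary epithelium; right, Lamb1 against the summed level of 6 retinal neuron markers. All axes are TMM-scaled CPM on a log scale, each point is a library and digits are replicate numbers. The 3 WT libraries sit apart at high Lama3 and 160 to 240 CPM of ciliary markers, and WT replicate 3 sits alone at 703 CPM of retinal neuron markers and 110 CPM of Lamb1.

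The α5 chain gene moved the other way. Lama5 codes for the α chain found in most epithelial basement membranes and, per kb of all exons, had the highest mean α-chain level in all 3 groups, although its range overlapped those of Lama3 and Lama1 in WT and that of Lama1 in OVE918. With the short Lama3 transcript as the length, Lama3 would rank above it in WT, as given with the order of the chains. It is listed at 342, 336 and 171 CPM in WT, 629, 578 and 670 CPM in OVE853, and 449, 651, 502 and 335 CPM in OVE918. Every OVE853 library exceeded every WT library, while OVE918 replicate 4 fell within the WT range. Lama5 was 2.21-fold higher in OVE853 (log2 fold change 1.14 ± 0.28 (SE), edgeR FDR = 0.0200), and it was not called in OVE918 (0.78 ± 0.26, FDR = 0.0609). Without WT replicate 3 the OVE853 value was 0.87 (FDR = 0.0263), under the fold limit, and the call was also lost without OVE853 replicate 1 (FDR = 0.0660) or replicate 3 (FDR = 0.0732). The difference between the lines was -0.37 ± 0.25 on the log2 scale (FDR = 0.386).

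Lama1, the α chain of embryonic basement membranes that stays on in the lens capsule, was not called in either line. Its levels were 186, 185 and 69.5 CPM in WT, 258, 270 and 274 CPM in OVE853, and 208, 329, 247 and 174 CPM in OVE918. OVE853 lay wholly above WT, and OVE918 overlapped it through replicate 4. The log2 fold change was 0.87 ± 0.34 (FDR = 0.104) in OVE853 and 0.71 ± 0.32 (FDR = 0.150) in OVE918, and without WT replicate 3 it was 0.51 (FDR = 0.152) and 0.36 (FDR = 0.284). The ratio of Lama5 to Lama1 per kb of exon was 1.52 to 2.06 in WT, 1.79 to 2.04 in OVE853 and 1.61 to 1.80 in OVE918, so these ranges overlapped in all 3 groups.

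Lama2, the α chain of muscle and peripheral nerve, had levels of 94.0, 77.9 and 17.1 CPM in WT, 60.1, 70.9 and 67.9 CPM in OVE853, and 35.4, 44.6, 46.3 and 28.0 CPM in OVE918. WT replicate 3 was the lowest of all 10 libraries, at a level 5.04-fold below the mean of the other WT libraries. With that library Lama2 was not called in OVE918 (log2 fold change -0.71 ± 0.46 (SE), edgeR FDR = 0.329), and without it Lama2 was reduced (-1.17 ± 0.17, FDR = 0.000875). In OVE853 the value was 0.08 ± 0.49 (FDR = 0.927), and -0.39 (FDR = 0.213) without WT replicate 3. All 4 OVE918 libraries were below the 3 OVE853 libraries, with a log2 difference of -0.78 ± 0.46 (FDR = 0.331). This FDR depended on the fit. It was 0.0269 to 0.574 when single libraries were left out and 0.0379 to 0.661 under the other alternatives, with no call in any.

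Lama4, the α chain of vascular endothelium and of mesenchyme, was at a low level in all groups. Its counts were 19, 9 and 11 in WT, 83, 25 and 47 in OVE853, and 27, 31, 62 and 69 in OVE918, which is 0.345 to 0.846 CPM in WT and at most 3.17 CPM elsewhere. All transgenic libraries were above all WT libraries. In the wider filterByExpr set it was elevated in OVE918 (log2 fold change 1.92 ± 0.53 (SE), edgeR FDR = 0.0319), where 8.79% of genes were called, and not in OVE853 (1.69 ± 0.55, FDR = 0.0653), where 6.89% were called. The OVE918 call was lost when WT replicate 2 (FDR = 0.0940), WT replicate 3 (FDR = 0.0889), OVE853 replicate 3 (FDR = 0.0507), OVE918 replicate 3 (FDR = 0.0759) or OVE918 replicate 4 (FDR = 0.0730) was left out. In OVE853 it became a call without WT replicate 1 (FDR = 0.0343). Endothelial markers other than Kdr were also higher in the transgenic libraries. Pecam1, Cdh5, Emcn, Cldn5 and Tie1 summed to 2.06 to 5.96 CPM in WT, 7.49 to 19.2 CPM in OVE853 and 9.63 to 20.7 CPM in OVE918. Of these 5, Cdh5 was called elevated in OVE853 and Pecam1, Cdh5, Cldn5 and Tie1 in OVE918, with Cldn5 past the FPKM minimum and the others in the filterByExpr set. Kdr, the remaining marker, was at 15.2 to 112 CPM in WT and 5.34 to 14.1 CPM in the transgenic libraries, with no call. No endothelial marker was at the count floor throughout a group, and the part of endothelial cells in the Lama4 values was not tested.

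**Figure D3:**
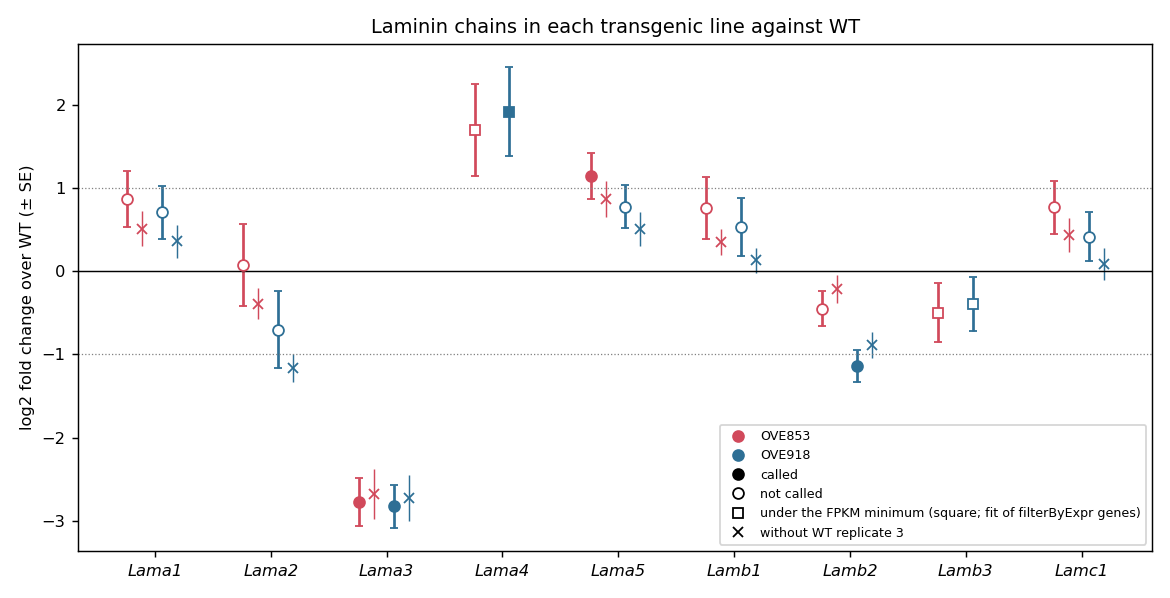
Log2 fold change over WT (y axis, ± SE) of each laminin chain in OVE853 (red) and OVE918 (blue). Filled symbols were called and open symbols were not, squares are the chains below the FPKM minimum, crosses are the fits without WT replicate 3, and dotted lines mark a log2 change of 1 in either direction. Lama3 sits near -2.8 in both lines with or without that library, while the crosses of Lama1, Lama5, Lamb1 and Lamc1 lie closer to 0.

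Among the β chains, Lamb1 had the highest mean level per kb of the laminin genes in every group, and Lamb2 was reduced in OVE918. In WT replicate 3, however, Lamb1 was at 17.3 CPM per kb, below Lamb2 at 35.8 and Lama3 at 19.9. Lamb2 codes for the β chain of the neuromuscular junction, the kidney glomerulus and the inner limiting membrane of the retina. It was present at 103, 152 and 202 CPM in WT, 113, 103 and 117 CPM in OVE853, and 67.9, 71.1, 80.7 and 56.8 CPM in OVE918. The 4 OVE918 libraries lay below the other 6, and OVE853 lay within the lower WT range. Lamb2 was 2.20-fold lower in OVE918 than in WT (log2 fold change -1.14 ± 0.19 (SE), edgeR FDR = 0.00207) and was not called in OVE853 (-0.45 ± 0.21, FDR = 0.151). Without WT replicate 3, its highest library, the OVE918 value was -0.89 (FDR = 0.00273), past the FDR limit and under the fold limit. The direct comparison of OVE918 with OVE853 gave -0.69 ± 0.19 (FDR = 0.0907), so the difference between the lines was not called. Under alternatives other than leaving out single libraries, this log2 difference was -0.69 to -0.61. Its FDR was then 0.0077 to 0.185, past the limit in some of them but always under the fold limit.

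Lamb1, the β chain of the earliest basement membranes, had levels of 406, 353 and 110 CPM in WT, 466, 508 and 499 CPM in OVE853, and 352, 523, 424 and 373 CPM in OVE918. OVE853 was wholly above WT, and OVE918 overlapped the higher WT libraries. It was not called in OVE853 (log2 fold change 0.76 ± 0.38 (SE), edgeR FDR = 0.182) or in OVE918 (0.53 ± 0.35, FDR = 0.334), and without WT replicate 3 the values were 0.35 (FDR = 0.187) and 0.13 (FDR = 0.642). Lamb3, the partner of Lama3 in hemidesmosomes, had 47 to 145 counts per library, or 2.36 to 5.06 CPM in WT, 1.73 to 3.25 CPM in OVE853 and 1.85 to 3.67 CPM in OVE918. The groups overlapped, and in the filterByExpr set the log2 fold changes were -0.50 ± 0.35 (FDR = 0.347) and -0.39 ± 0.33 (FDR = 0.444).

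Lamc1, the γ chain shared by nearly all laminins outside hemidesmosomes, was not called. Its levels were 355, 312 and 135 CPM in WT, 416, 476 and 472 CPM in OVE853, and 289, 486, 371 and 279 CPM in OVE918. Again OVE853 lay above every WT library and OVE918 overlapped. The log2 fold change was 0.77 ± 0.32 (SE, edgeR FDR = 0.121) in OVE853 and 0.41 ± 0.30 (FDR = 0.370) in OVE918, and without WT replicate 3 it was 0.43 (FDR = 0.224) and 0.08 (FDR = 0.839). In OVE853, 4 of the 7 tested chains (Lama1, Lama5, Lamb1 and Lamc1) thus had every library above WT, where 23.4% of all tested genes did, and Lama3 had every library below, where 22% did. In OVE918 no tested chain lay wholly above WT, against 12.3% of genes, and 2 lay wholly below, against 14.9%.

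Between the lines no laminin chain was called by edgeR, where 0.487% of genes were, and none was called by DESeq2 or by voom. DESeq2 and voom each had 1 chain past the FDR limit, under the fold limit. Lamb2 alone had an unadjusted p under 0.05 in edgeR. The share of all genes was not computed at these limits. All 7 tested chains had a negative log2 difference of OVE918 over OVE853, although that of Lama3 changed sign under some alternatives. The median was -0.35 against -0.02 over all genes, and Lama2 and Lamb2 did not overlap, as was so below OVE853 for 16.2% of genes.

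Per kb of exon, the order of the 9 chains in WT was Lamb1 (45.5 ± 24.8 CPM per kb, SD, n = 3), Lamc1 (33.7 ± 14.7), Lamb2 (27.0 ± 8.78), Lama5 (24.7 ± 8.45), Lama3 (17.3 ± 4.35), Lama1 (15.4 ± 7.00), Lama2 (6.16 ± 3.96), Lamb3 (0.548 ± 0.209) and Lama4 (0.0766 ± 0.0407). Neighbours from Lamb1 to Lama2 overlapped in their ranges over the libraries. Within libraries, however, Lamb1 was above Lamc1 and Lama1 above Lama2 in all 3 WT libraries. By contrast Lamb3 and Lama4 did not overlap with any of the 9 chains above them. The order in OVE853 was Lamb1 (77.1 ± 3.47), Lamc1 (57.3 ± 4.21), Lama5 (54.6 ± 4.00), Lama1 (28.0 ± 0.861), Lamb2 (19.8 ± 1.28), Lama2 (6.48 ± 0.545), Lama3 (2.54 ± 0.184), Lamb3 (0.384 ± 0.116) and Lama4 (0.244 ± 0.115). Here Lamc1 with Lama5, and Lamb3 with Lama4, were the only neighbours whose ranges overlapped. OVE918 had the same order, from 65.7 ± 12.0 CPM per kb for Lamb1 to 0.283 ± 0.143 for Lama4 (n = 4), and all neighbours overlapped except Lama1 with Lamb2, Lamb2 with Lama2 and Lama3 with Lamb3. Lama3 has a long and a short transcript, and with the 7228 bases of the short Lama3-202 in place of all exons its WT level would be 30.4 CPM per kb, which is between Lamb2 and Lamc1.

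The α-chain make-up held less Lama3 and more Lama5 and Lama1 in both lines than in WT. Lama3 made 29.6% ± 14.3 (SD, n = 3) of the summed α-chain level per kb in WT, with 17.3% to 45.4% in single libraries, 2.77% ± 0.0817 (n = 3) in OVE853 and 3.38% ± 1.20 (n = 4) in OVE918. Lama5 made 38.3% ± 3.99 in WT, 59.4% ± 1.91 in OVE853 and 57.1% ± 0.746 in OVE918, and Lama1 made 23.1% ± 5.77, 30.5% ± 1.33 and 33.9% ± 1.44. The transgenic libraries lay beyond the WT range for all 3 chains. Within the β chains, Lamb2 made 22.1% to 66.4% in WT, 18.6% to 21.5% in OVE853 and 13.3% to 17.8% in OVE918, and the highest value was that of WT replicate 3. These shares are descriptions without a test, and a fall in one chain raises the share of the others. They use all exons of Lama3 as its length. With the short transcript its share would be higher and those of the other α chains lower.

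**Figure D4:**
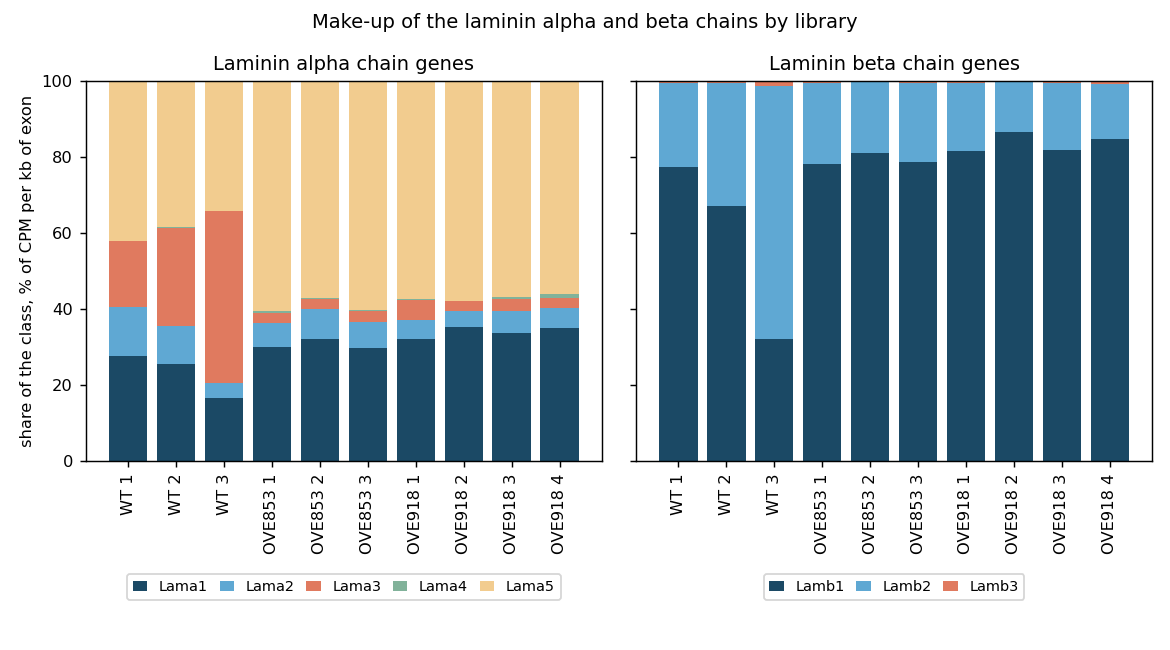
Share of each gene in the summed level of its chain class (y axis, percent of CPM per kb of exon) in each of the 10 libraries (x axis), for the α and β chains. With all its exons as the length, Lama3 takes 17.3% to 45.4% of the α chains in WT and at most 5.12% in the transgenic libraries. Lamb2 takes 66.4% of the β chains in WT replicate 3.

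Across the libraries the chains fell into sets that varied together. Pearson's r of log2 CPM over the 10 libraries was 0.963 between Lama1 and Lama5, 0.970 between Lama1 and Lamb1, 0.972 between Lama1 and Lamc1 and 0.968 between Lamb1 and Lamc1. Without WT replicate 3 these were 0.950, 0.896, 0.898 and 0.975 over 9 libraries. Lama3 had r of 0.768 with Lamb2 (0.648 without that library) and -0.715 with Lama5 (-0.546 without it), and Lama2 had r of 0.0263 with Lamb2 over all libraries and 0.877 without it. Libraries of a group share their genotype, so these values describe the libraries and are given without a p. The ratio of Lama1 to Lamc1 per kb was 0.427 to 0.493 in WT, 0.471 to 0.515 in OVE853 and 0.518 to 0.597 in OVE918. In this ratio the OVE918 libraries lay above those of both other groups. The ratio of Lama3 to Lama1 was 0.633 to 2.73 in WT, 0.0864 to 0.0961 in OVE853 and 0.0701 to 0.160 in OVE918.

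The WT library that stood apart differed between the chains. In WT replicate 3, Lama2, Lamb1, Lama1, Lamc1 and Lama5 were 5.04-, 3.44-, 2.67-, 2.47- and 1.98-fold below the mean of the other WT libraries. By contrast Lamb3, Lamb2 and Lama3 were 1.78-, 1.59- and 1.24-fold above it. The retinal neuron, Müller glia and cornea marker sums given above were also highest in this library. Of the 5 fibroblast markers, Pdgfra made nearly the whole sum, at 251 to 444 CPM in WT, 544 to 604 CPM in OVE853 and 325 to 508 CPM in OVE918, and its lowest WT library was replicate 3. The other 4 markers together were at 0.919 to 3.00 CPM in WT, 0.391 to 1.35 CPM in OVE853 and 0.222 to 1.79 CPM in OVE918, with Dpt at 3 counts or less throughout OVE853 and both Dpt and Lum throughout OVE918. The part of these cells in the laminin values was not tested. Leaving this library out changed the tested chains called to 1 in OVE853 (Lama3, where 3.6% of genes were called) and to 2 in OVE918 (Lama2 and Lama3, where 4.78% were called).

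The genes whose levels over the 10 libraries were most like Lama3 were Shisa9 (r = 0.987), Meis2 (0.985), Ube2q2 (0.983), Chrdl1 (0.980) and Prrt4 (0.975). For Lama5 they were Srpk1 (0.986), Ptprf (0.986), Tert (0.983), Mfap3 (0.983) and Map3k1 (0.982), and for Lamb2 they were Scap (0.992), Tgoln1 (0.977), Ppm1m (0.976), Acbd4 (0.974) and Sorbs3 (0.971). These are the highest of 11098 genes tested, as r of log2 CPM, and are named for likeness of level alone.

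Of 8 laminin receptor genes, 7 were tested. Itga7, the α subunit of a laminin-binding integrin known from muscle, was elevated in both lines (log2 fold change 2.19 ± 0.24 (SE), edgeR FDR = 0.000202 in OVE853 and 2.49 ± 0.23, FDR = 4.21e-05 in OVE918). Bcam, a receptor for the α5 chain, was reduced in OVE918 (-1.14 ± 0.18, FDR = 0.00117) and not called in OVE853 (-0.07 ± 0.19, FDR = 0.826), and OVE918 was below OVE853 (-1.08 ± 0.18, FDR = 0.0250). Itga6 passed the FDR limit in both lines with log2 fold changes of 0.56 and 0.53, under the fold limit. Itga3, Itgb1, Cd151 and Dag1, which codes for dystroglycan, were not called. Itgb4, the hemidesmosome integrin subunit, was below the FPKM minimum and in the filterByExpr set was elevated in both lines (1.47 ± 0.25, FDR = 0.00463 and 1.57 ± 0.24, FDR = 0.00139).

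Of 15 basement membrane partners, 14 were tested and none was elevated, where 2.51% of all tested genes were in OVE853 and 2.58% in OVE918. In OVE853 2 were reduced and in OVE918 3, where 1.91% and 3.02% of all tested genes were. Ntn4, a netrin that binds laminin γ chains and blocks their polymerisation, was reduced in both lines (-2.21 ± 0.34, edgeR FDR = 0.00228 and -1.97 ± 0.31, FDR = 0.00141). Col18a1, a basement membrane collagen, was also reduced in both (-1.29 and -2.73), and Nid2 in OVE918 (-1.20 ± 0.25, FDR = 0.00685). Nid1, the nidogen that links laminin γ1 to collagen IV, had a log2 fold change of 0.98 (FDR = 0.0472) in OVE853 and 0.56 (FDR = 0.185) in OVE918. Col4a6, a collagen IV chain gene, passed the FDR limit in both lines (0.92, FDR = 0.0242 and 0.71, FDR = 0.0436), under the fold limit. Of 12 enzymes that build the laminin-binding glycan of dystroglycan, 11 were tested and edgeR called none in either line. Over all tested genes, 4.42% were called in OVE853 and 5.6% in OVE918, so no call among 11 genes is close to that share. In edgeR 4 and 3 of them had an unadjusted p under 0.05, and DESeq2 and voom also called none. At the FDR limit without the fold limit, DESeq2 passed 1 in OVE853 and 2 in OVE918, and voom passed 4 in each line. The shares of all genes at the unadjusted p and at this limit were not computed, so these counts have no background. Of 6 proteases that cut laminins or other matrix proteins, 3 were tested. Mmp2 was elevated in both lines (1.40 ± 0.33, FDR = 0.0180 and 1.86 ± 0.32, FDR = 0.00244), and Bmp1 passed the FDR limit at 0.86 and 0.91, under the fold limit. Among the genes of these 4 lists that passed the FPKM minimum, the same genes were called in both lines without WT replicate 3, and in the filterByExpr set Itgb4 was then at 1.46 (FDR = 0.00770) and 1.58 (FDR = 0.00247).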

How the data were processed

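Reads of 10 libraries were trimmed, aligned to mm39 and counted by the authors (cutadapt 5.2, STAR 2.7.11b and featureCounts 2.0.8 per the labels, reverse-stranded read pairs), and the values used here are the deposited raw counts per gene. TMM factors, CPM and FPKM were computed in edgeR 4.0.16 (R 4.3.3). Exon lengths came from GENCODE vM39 (GRCm39), for 43252 genes by symbol and 37 by synonym, and 7474 had none. Genes with 2 FPKM in 5 libraries were tested with edgeR's quasi-likelihood test in 1 fit of 3 groups, with Benjamini-Hochberg adjustment over 11098 genes. DESeq2 1.42.0 and limma 3.58.1 (voom) were alternatives. A floor of 3 counts was 0.0902 to 0.138 CPM and covers counting error only. Replicates are separate pools, so p-values measure the spread between pools, and no pair of replicates was alike within sampling noise. The genes named are all members, Tgfb1, members of the lists that were called or define them, and the 5 most like each called chain. Members and lists were chosen with earlier results of these data known. The steps were tested on simulated data. A further gene of the rule is not reported here.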

Additional observations from a re-analysis of the deposited data

How the results depend on the processing

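The number of laminin chains called in OVE853 was 2, and it was 1 (Lama3) with voom and sample weights, with no filter on low counts and in a test against a fold change of 2. Leaving out single libraries gave 1 to 2. In OVE918 the number was 2, and it was 1 (Lama3) with voom and in the test against a fold change of 2. It was 3, with Lama4, with filterByExpr and with no filter. Leaving out single libraries gave 2 in every case, Lama2 and Lama3 without WT replicate 3 and Lama3 and Lamb2 otherwise. Between the lines no chain was called under any alternative. At the FDR limit without the fold limit, voom passed 6 of the 7 tested chains in OVE853, all but Lama2, and 4 in OVE918. DESeq2 passed 3 in each line at that limit. Between the lines, DESeq2 and voom each passed 1 chain at that limit. The share of all genes past that limit was not computed for DESeq2 or voom. These counts therefore have no background to be set against, and nothing is read from them about the laminin chains. Lama5 in OVE853 had an FDR of 0.0595 with no filter, of 0.0153 to 0.0732 when single libraries were left out, and a log2 fold change of 0.98 with voom, and Lamb2 in OVE918 had -0.98 with voom. Libraries with the same replicate number share only that number (correlations of their deviations from the group means were -0.30 to 0.084 over 9 pairs). A fit with the replicate number as a block called 2, 2 and 0 tested chains and lost Lama4 in OVE918 (FDR = 0.0648). Over all genes tested the block changed the calls from 491 to 441, 621 to 538 and 54 to 28. The calls over all genes were 1244, 1587 and 44 with filterByExpr and 1061, 1548 and 59 with no filter, and between the lines they were 107 with DESeq2, 124 with voom, 97 with only the groups compared and 6 to 93 when single libraries were left out. Lama4 in OVE918 was also lost with only the groups compared (FDR = 0.0531), and in OVE853 it was called by DESeq2 (FDR = 0.0256) and voom (FDR = 0.0382). The Lama3 level with the shorter transcript was added after seeing the data. The cause of these changes was not tested. Of the values for single chains, 497 kept their direction and their side of the threshold, 14 lost the call, 4 gained it and 13 changed sign with no call on either side. The sign changes were in Lama2 in OVE853 (0.08), which was -0.13 with voom and -0.39 to 0.48 when single libraries were left out, and in comparisons of OVE918 with OVE853. There Lama3 (-0.06) was 0.13 with the replicate block, 0.032 with voom and -0.28 to 0.13 without single libraries. Lama4 (0.22) was -0.017 with the block and -0.10 to 0.65 without single libraries, and Lamb3 (0.11) was -0.093 with the block, -0.0044 with voom and -0.10 to 0.36 without single libraries. The 3 or 4 pools of each group limit what could be detected, and depth limits Lama4 and Lamb3.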
